A study of Saccharomyces cerevisiae with 22 samples.

Results

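The genes described here are 10 genes of gluconeogenesis, the glyoxylate cycle and their supply routes in budding yeast, out of 6242 genes with at least 1 row on the arrays. They were chosen by systematic name: PCK1 (YKR097W), FBP1 (YLR377C), ICL1 (YER065C), MLS1 (YNL117W), MDH2 (YOL126C), ACS1 (YAL054C), SFC1 (YJR095W), CIT2 (YCR005C), JEN1 (YKL217W) and CAT8 (YMR280C). All 10 have a row, and 6 of them (PCK1, ICL1, MLS1, SFC1, CIT2 and JEN1) had enough values to be tested, among 4783 tested genes. FBP1 had values on 17 of the 22 arrays, ACS1 and CAT8 on 16 and MDH2 on 5, so these are described array by array and not tested in the main comparisons.

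Yeast was grown in 3 chemostats at steady state in galactose and then switched to glucose. RNA, extracted with hot phenol, was labelled with Cy5 and hybridised against a Cy3-labelled pool made from glucose and galactose samples. The no3AT chemostat has 2 galactose arrays (305 and 316 hours), 4 glucose arrays before steady state (344, 353, 385 and 478 hours) and 2 at glucose steady state (507 and 526 hours). The 3AT40mM chemostat held 40 mM of 3AT, or 3-amino-1,2,4-triazole, which competes with the substrate of His3, an enzyme of histidine synthesis. It has 2 galactose arrays (477 and 522 hours), 5 in glucose (552, 574, 592, 850 and 878 hours) and 1 at glucose steady state (937 hours). The no3AT2 chemostat, without inhibitor, has 1 galactose array with no labelled hour, 2 in glucose (315 and 328 hours) and 3 at glucose steady state with no labelled hour. The no3AT2 arrays carry polyA RNA and the others total RNA. Strain and genotype are not stated in the labels. The published work on these cultures placed HIS3 under the GAL1 promoter, which would be shared by all groups here. Each condition with the inhibitor comes from 1 culture, so inhibitor and culture cannot be told apart.

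Gluconeogenesis makes glucose phosphates from smaller carbon compounds. It reverses glycolysis except at steps that need their own enzymes, among them phosphoenolpyruvate carboxykinase (Pck1) and fructose-1,6-bisphosphatase (Fbp1). The glyoxylate cycle, whose own enzymes are isocitrate lyase (Icl1) and malate synthase (Mls1), turns acetyl units into C4 acids that feed this route. In yeast the genes are switched off by glucose. The kinase Snf1 counters the repressor Mig1 and allows the activators Cat8 and Sip4 to work when glucose is low, whereas galactose, itself a fermentable sugar, represses less than glucose does.

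Values are log2 ratios of sample over reference pool after the median of each array was subtracted (called centred log2 ratios). Each is relative to the pool, so levels cannot be set against each other between genes. In bulk RNA, fewer cells with a transcript and less transcript per cell cannot be told apart. GAL1 and GAL7, galactose enzymes that mark the sugar switch, were lower on early glucose by limma over chemostats (GAL1 fell by 1.70, adjusted p = 0.0228, and GAL7 fell by 2.54, adjusted p = 0.0093). They were not lower on the 552-hour glucose array of 3AT40mM, one of its 2 early arrays. There GAL1 was at -0.93 against -1.23 and -1.06 in galactose, and GAL7 at -0.81 against -0.91 and -0.80, while at 574 hours they were at -4.26 and -4.87. Neighbouring rows of the deposited table correlate on most arrays (r for rows at a distance of 2 between 0.19 and 0.66). Results are therefore also given with neighbour-corrected values, made by subtracting the local median over 10 rows above and 10 rows below, taking every other row (a step of 2). With these values GAL1 was at -1.75 and GAL7 at -2.69 on early glucose (limma adjusted p = 0.1742 and 0.1076). The early 3AT40mM arrays at 552 and 574 hours correlate at only -0.20 over all genes, while the other arrays of one chemostat and phase correlate between 0.39 and 0.76.

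ICL1, which splits isocitrate into glyoxylate and succinate, had the widest range of the 10 genes, from -1.63 to 2.76. In the no3AT chemostat its centred log2 ratios were 1.88 and 2.76 in galactose, -0.18, 1.30, 0.18 and 0.09 in glucose before steady state, and 0.10 and -0.29 at glucose steady state. All 6 glucose arrays lay below both galactose arrays there, though the 353-hour array stood well above the other 5. With neighbour-corrected values that array was at -0.06, among the other glucose arrays (-0.42 to 0.19). In the 3AT40mM chemostat the values were 0.31 and -0.48 in galactose, -0.87, -1.63, -1.23, -0.62 and -0.65 in glucose, and -0.43 at steady state. There 5 of 6 glucose arrays lay below the lower galactose array, and the steady-state array lay between the pair. In the no3AT2 chemostat ICL1 was at 0.35 on the galactose array, -0.51 and -0.66 in glucose and -0.08, -0.32 and -0.13 at steady state, so all 5 glucose arrays were lower. Thus ICL1 was lower on average in glucose in each chemostat. The fall was largest in no3AT, where its galactose level was highest, but that level is itself part of the difference.

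MLS1, which joins glyoxylate to acetyl-CoA, was high on 2 arrays only. Its values in the no3AT chemostat were 0.96 and 0.86 in galactose, -0.82, -0.70, -0.21 and -0.09 in glucose and -0.32 on both steady-state arrays, with no overlap. With the inhibitor it was at -0.02 and -0.32 in galactose, -0.06, -0.12, 0.16, 0.28 and -0.04 in glucose and -0.75 at steady state. Apart from that last array, galactose and glucose overlapped. In no3AT2 it read -0.07 in galactose, -0.21 and -0.54 in glucose, and -0.34 and -0.51 at steady state, with 1 value missing.

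MDH2, the cytosolic malate dehydrogenase, was measured only in the no3AT chemostat. It was at 0.24 on 1 galactose array, -1.12, 0.22 and -1.02 in glucose at 353, 385 and 478 hours, and -0.08 at steady state. With neighbour-corrected values the order changed, to 0.18 in galactose, -0.30, -0.37 and -0.69 in glucose and -0.07 at steady state. CIT2, the peroxisomal citrate synthase, behaved unlike ICL1 and MLS1. In the no3AT chemostat it was at -0.54 and -0.33 in galactose, -0.02, 0.07, -0.29 and -0.30 in glucose, and -0.80 and -0.54 at steady state. The CIT2 values of 3AT40mM were -0.17 and -0.34 in galactose, between -0.68 and 0.12 on the 5 glucose arrays, and -0.06 at steady state. Galactose and glucose overlapped in both. In no3AT2 CIT2 was at 0.55 in galactose, -0.50 and 0.11 in glucose, and 0.13, 1.15 and -0.66 at steady state, a spread of 1.81 between arrays of one phase. After neighbour correction its mean was above galactose in each chemostat, by 1.16, 0.87 and 0.48 on early glucose and by 0.83, 1.09 and 1.29 at steady state.

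PCK1, which makes phosphoenolpyruvate from oxaloacetate, had a pattern that depended on whether neighbouring rows were corrected for. In the no3AT chemostat it was at 0.74 and 0.48 in galactose, -0.37, -1.04, 1.44 and -0.24 in glucose, and -0.06 and 0.70 at steady state. The 2 early glucose arrays were low, while the 385-hour array was the highest of all 22 (0.09 after neighbour correction). In the 3AT40mM chemostat PCK1 was at -0.86 and -0.68 in galactose, -0.65, 0.00, 0.45, 0.41 and 0.02 in glucose, and 0.01 at steady state. All 6 glucose arrays there lay above both galactose arrays. This did not hold with neighbour-corrected values, where galactose was at -0.47 and -0.38, the glucose array at 574 hours at -0.44 and the steady-state array at -0.88. The mean change from galactose in 3AT40mM went from 0.45 to 0.02 on early glucose and from 0.78 to -0.46 at steady state. In the other chemostats it was negative with either set of values. In no3AT2 it was at 0.24 in galactose, -1.12 and -0.89 in glucose, and -0.40, -0.34 and 0.05 at steady state, all lower than galactose.

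FBP1, whose enzyme removes a phosphate from fructose-1,6-bisphosphate, had its lowest value on the 574-hour array, as ICL1 and SFC1 did. In the no3AT chemostat it was at 0.97 on 1 galactose array, 0.11, -0.99, 0.96 and -0.29 in glucose, and 0.05 and -0.42 at steady state. All 6 glucose arrays lay below the galactose array, the 385-hour one only just. In 3AT40mM it was at -0.17 and 0.08 in galactose, 0.04, -1.80, -0.65, -0.22 and -0.15 in glucose, and 1.16 at steady state. The lowest value, at 574 hours, and the return toward the galactose level by 850 hours belong to one culture. In no3AT2 only the galactose array, at 1.32, and the 315-hour glucose array, at -0.84, had values.

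Of the supply genes, SFC1, the mitochondrial carrier that exchanges succinate from the glyoxylate cycle for fumarate, was lower on every early glucose array than on any galactose array of its chemostat. In the no3AT chemostat SFC1 was at 0.15 and 0.55 in galactose, -0.23, -1.80, -0.07 and 0.82 in glucose, and -0.22 and 0.32 at steady state. With 40 mM of 3AT it was at 0.47 and 0.13 in galactose, 0.01, -1.88, -1.20, -0.53 and -0.28 in glucose, and -0.42 at steady state. In no3AT2 it was at 1.04 in galactose, -0.32 and -0.41 in glucose, and -0.75, -0.33 and -0.42 at steady state. The glucose arrays lay wholly below galactose in the last 2 chemostats and overlapped it in the first, where 4 of 6 were below. With neighbour-corrected values the overlap in no3AT was gone: the 478-hour value was -0.12 and the 526-hour value -0.22, below galactose at 0.32 and 0.69. The lowest SFC1 value of each of the first 2 chemostats came on its second glucose array, at 353 and 574 hours.

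ACS1, an acetyl-CoA synthetase that activates acetate, was at -0.62 and 0.81 in galactose in the no3AT chemostat, -0.54 at 344 hours, and -1.62 and -2.01 at steady state. In the 3AT40mM chemostat its values were 0.16 and 0.66 in galactose, between -1.46 (592 hours) and 0.53 (552 hours) on the 5 glucose arrays, and -0.52 at steady state, with 5 of 6 glucose arrays below galactose. In no3AT2 it was at 0.01 in galactose, -0.54 at 315 hours and -0.70 on the second steady-state array. ACS1 was below its galactose mean at steady state in all 3 chemostats, but its galactose arrays in no3AT lay 1.43 apart. After neighbour correction its steady-state changes were -0.77, -0.07 and 0.26. JEN1, the permease for lactate and pyruvate, overlapped between the sugars in both of the first chemostats. It was at -0.15 and 0.22 in galactose, -0.13, 1.26, 0.02 and 0.52 in glucose and -0.10 and -0.04 at steady state in no3AT. In 3AT40mM the JEN1 values were -0.04 and -0.50 in galactose, between -0.60 and -0.03 in glucose, and -0.72 at steady state. In no3AT2 the galactose array was highest at 0.35, followed by -0.04, -0.26 and -0.31 at steady state and by -0.69 and -1.11 in early glucose.

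CAT8, the zinc cluster activator of these genes, had 15 of its 16 values in the first 2 chemostats, and the remaining one, 0.97, on the 328-hour array of no3AT2. In no3AT it was at 1.42 and 0.35 in galactose, 1.70, -1.13, 0.52 and 0.72 in glucose, and 1.27 and 0.46 at steady state. In 3AT40mM it was at 0.35 and -0.04 in galactose, -0.43, 1.45, 0.03 and 0.24 on 4 glucose arrays, and 1.77 at steady state. Its galactose and glucose values overlapped in both, and the highest value came at the glucose steady state of the inhibitor chemostat.

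**Figure D1:**
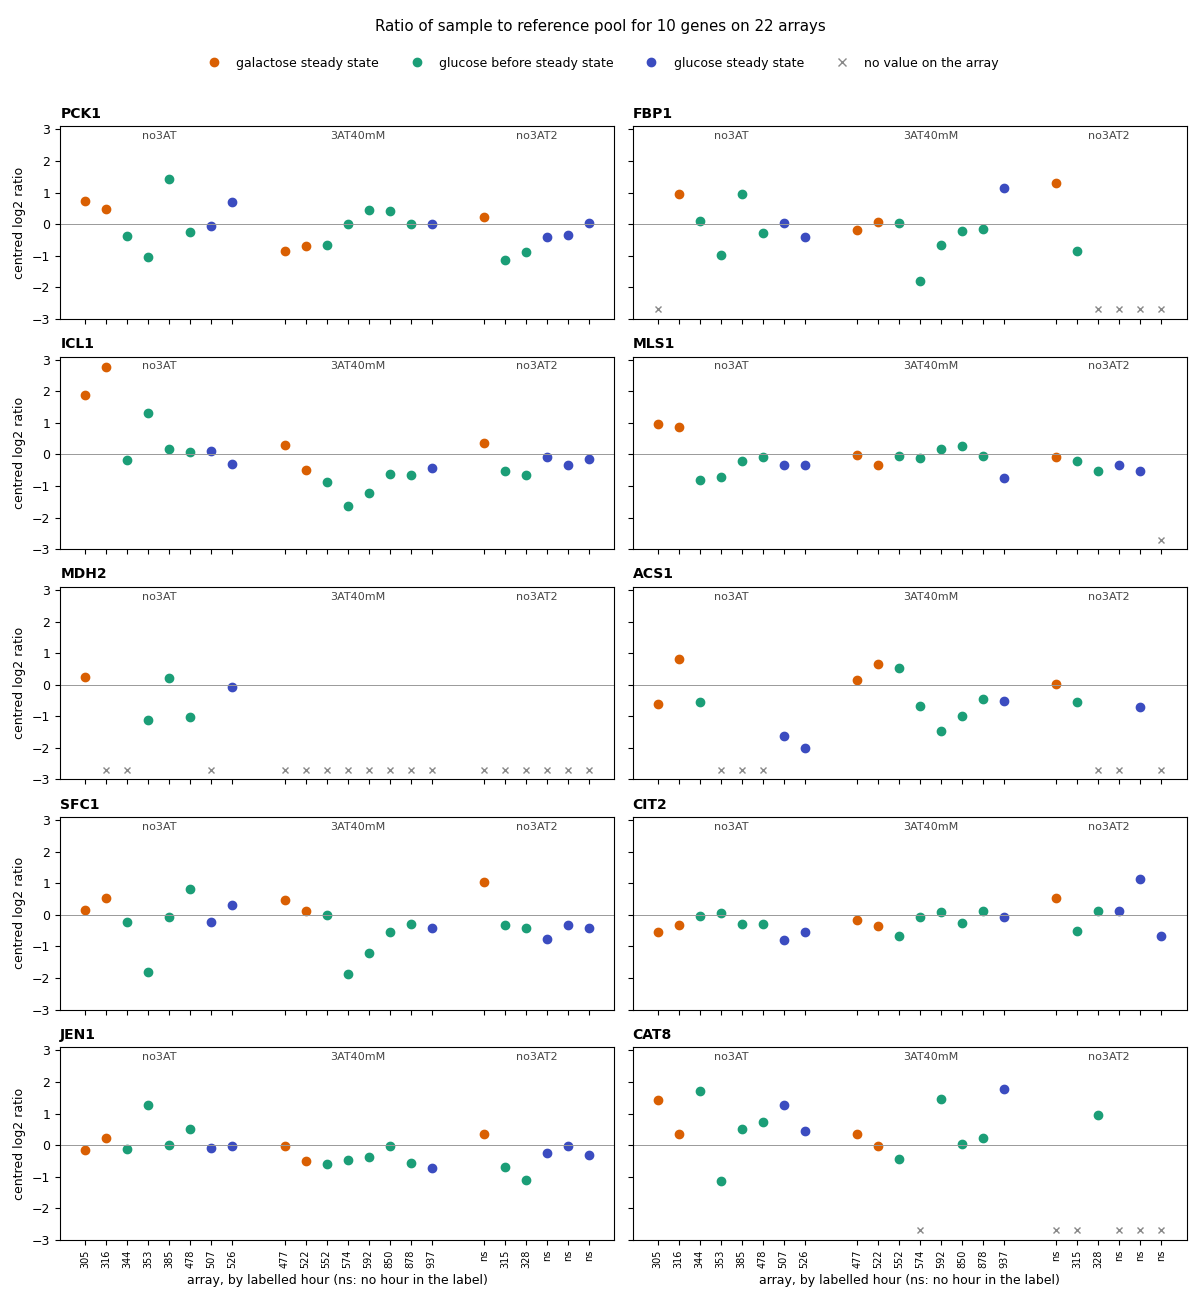
Centred log2 ratio of sample over reference pool for each of the 10 genes (y axis) on each of the 22 arrays (x axis, by labelled hour within chemostat). Each point is 1 array, coloured by phase, and crosses are arrays with no value. ICL1 reached 2.76 in no3AT galactose and -1.63 at 574 hours, and SFC1 in the 3AT40mM chemostat lay lower on all 6 glucose arrays than in galactose.

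Whether all glucose arrays of a chemostat lay below all its galactose arrays was counted for every gene with enough values. In the no3AT chemostat this held for 3 of 8 of the genes (FBP1, ICL1 and MLS1), beside 7.96% of 5351 genes. In the 3AT40mM chemostat it held for SFC1 alone of 9, beside 16.1% of 5636 genes. In no3AT2 it held for 5 of 6 (PCK1, ICL1, MLS1, SFC1 and JEN1), beside 30.7% of 4703 genes, against a single galactose array. None of the 10 genes met this in all 3 chemostats. With neighbour-corrected values SFC1 met it in all 3, but only just in 3AT40mM. There it was at 0.11 at 552 hours against 0.12 on the lower galactose array. The count with neighbour-corrected values was 5 of 8 in no3AT (PCK1, FBP1, ICL1, MLS1 and SFC1) beside 7.57% of genes, 1 of 9 in 3AT40mM beside 9.44%, and 5 of 6 in no3AT2 beside 26.8%. The counts are descriptions.

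Shared changes were sought by fitting limma to the means per chemostat and phase, with the chemostat as replicate (n = 3) and p-values adjusted over the 4783 genes. The 3 chemostats are not alike: 3AT40mM held the inhibitor, and the no3AT2 arrays carry polyA RNA. Any difference in response that comes with either is counted in the spread between chemostats. Early glucose stands for the 2 lowest labelled glucose hours of each chemostat. On early glucose SFC1 and ICL1 fell, and no gene of the set rose. SFC1 fell by 1.34 (SE 0.30, adjusted p = 0.0183), with changes of -1.36, -1.24 and -1.41 in no3AT, 3AT40mM and no3AT2. The arrays behind the first 2 of these lay far apart, at -0.58 (344 hours) and -2.15 (353 hours) in no3AT and at -0.29 (552 hours) and -2.18 (574 hours) in 3AT40mM. ICL1 fell by 1.29 (SE 0.36, adjusted p = 0.0449), with -1.76, -1.16 and -0.93. These are 2 of 6 tested genes, beside 6.86% of all tested genes that fell. PCK1 at -0.71 (SE 0.34, adjusted p = 0.2276), MLS1 at -0.63 (SE 0.33), JEN1 at -0.33 (SE 0.33) and CIT2 at -0.14 (SE 0.30) did not pass. All 6 were below 0, with a median of -0.67, while the median of all tested genes was 0.02 and 48.4% of them were below 0.

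Neither early call holds in every setting. With neighbour-corrected values the changes were larger, -1.46 for SFC1 and -1.76 for ICL1, but their adjusted p-values were 0.1367 and 0.1410, and none of the 4783 genes passed in that limma fit. Their unadjusted limma p-values were 0.0002 and 0.0005 with the correction, and 0.0005 and 0.0030 without it. Without the 574-hour array SFC1 was at -1.02 (limma adjusted p = 0.2663), and without the no3AT2 galactose array at -1.15 (adjusted p = 0.1494). ICL1 missed the threshold without any one of 8 arrays, those at 316, 344, 507, 477, 574 and 937 hours, the no3AT2 galactose array and the no3AT2 328-hour array, with changes between -1.52 and -1.04. Leaving out the 3AT40mM chemostat gave -1.38 for SFC1 (adjusted p = 0.1741) and -1.35 for ICL1 (adjusted p = 0.2147), and leaving out no3AT gave -1.32 (adjusted p = 0.0744) and -1.05 (adjusted p = 0.1488). ICL1 also missed the threshold without no3AT2 (-1.46, adjusted p = 0.0644). With only the lowest labelled glucose hour as early glucose, SFC1 was at -0.74 (adjusted p = 0.4020) and ICL1 at -1.38 (adjusted p = 0.2652).

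At glucose steady state, against galactose steady state, only ICL1 of the 6 passed in the limma fit over chemostats. ICL1 fell by 1.09 (SE 0.36, adjusted p = 0.0497), which is 1 of 6 beside 13% of all tested genes that fell. Its change was -2.41 in no3AT, -0.35 in 3AT40mM and -0.53 in no3AT2. Without the no3AT chemostat it was -0.44 (adjusted p = 0.5114), without 3AT40mM -1.47 (adjusted p = 0.1273), and with neighbour-corrected values -1.12 (adjusted p = 0.1396). Left out singly, each of 11 arrays also took the adjusted p past 0.05, up to 0.1227 without the 344-hour array. These were the arrays at 316, 344, 507, 477, 552, 574 and 937 hours and, in no3AT2, the galactose array, the 328-hour array and steady-state arrays 2 and 3.

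SFC1 was at -0.86 (SE 0.30, adjusted p = 0.0615) at glucose steady state, MLS1 at -0.72 (SE 0.33, adjusted p = 0.1351), JEN1 at -0.37 and CIT2 at -0.13. PCK1 was at 0.00 (SE 0.34, adjusted p = 0.9950), from chemostat changes of -0.29, 0.78 and -0.47. Its neighbour-corrected change was -0.82 (adjusted p = 0.1703), the widest such move of the 6 genes apart from CIT2, which stood at 1.07 (adjusted p = 0.0780) after that correction. The median of the 6 was -0.54, and that of all tested genes 0.02. ACS1 has a value in each chemostat and phase but on too few arrays. With the filter on the share of arrays dropped (4854 genes tested) it was at -1.18 at steady state (SE 0.30, limma adjusted p = 0.0168) and at -0.56 on early glucose (adjusted p = 0.2769). After neighbour correction ACS1 was at -0.19 and 0.24 (adjusted p = 0.7103 and 0.6832).

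**Figure D2:**
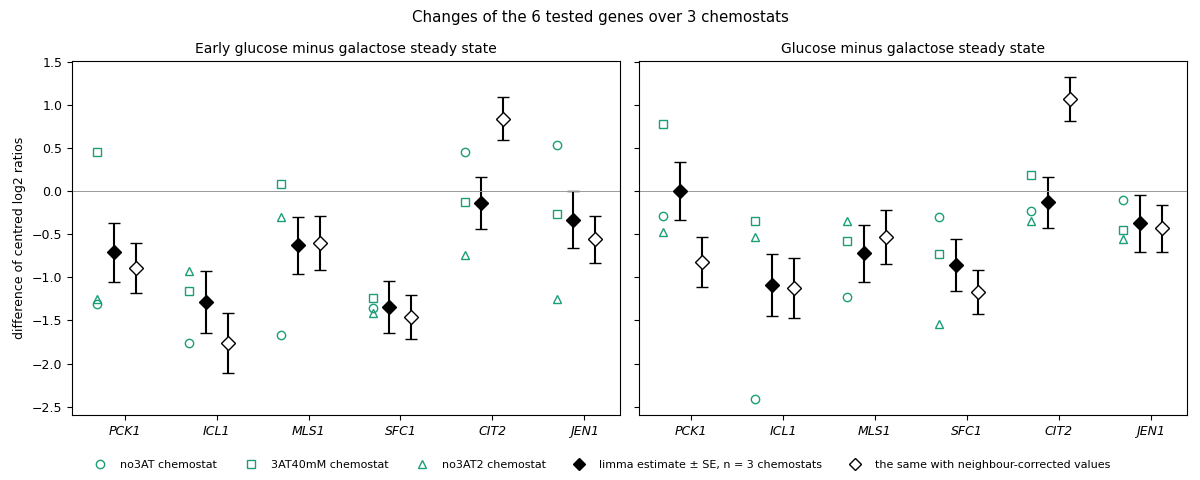
Difference of centred log2 ratios from galactose steady state for the 6 tested genes, on early glucose (left) and at glucose steady state (right). Open green symbols are the 3 chemostats, filled diamonds the limma estimate with its SE (n = 3 chemostats) and open diamonds the same with neighbour-corrected values. The 3AT40mM chemostat held the inhibitor, and the no3AT2 arrays carry polyA RNA. SFC1's early changes lie between -1.41 and -1.24, ICL1's steady-state changes spread from -2.41 to -0.35, and CIT2 moves to 0.84 and 1.07 after correction.

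Between early glucose and glucose steady state none of the 6 genes changed by limma, and 0% of all tested genes did (344 genes, none of the 6 among them, had an unadjusted p under 0.05). PCK1 was higher at steady state by 0.71 (SE 0.34, adjusted p = 0.6754) and SFC1 by 0.48 (SE 0.30, adjusted p = 0.6960). The other 4 lay between -0.09 and 0.19.

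Changes within a chemostat were taken from the limma fit on arrays. Its SE measures the spread between arrays of the same culture and phase, pooled over the 3 chemostats. It does not measure the spread between cultures or that of 1 chemostat by itself. In no3AT early glucose, 0% of tested genes passed. MLS1 stood at -1.67 (SE 0.35, adjusted p = 0.0942), ICL1 at -1.76 (adjusted p = 0.2157), SFC1 at -1.36 (adjusted p = 0.4259) and PCK1 at -1.31 (adjusted p = 0.2752), the 4 of the set with an unadjusted p under 0.05. Of all 4783 tested genes, 541 had an unadjusted p under 0.05 there. At no3AT steady state 0.0836% of genes passed, and of the set ICL1 came nearest at -2.41 (SE 0.47, adjusted p = 0.0594). ICL1 passed there with neighbour-corrected values, at -2.27 (adjusted p = 0.0349). In the 3AT40mM chemostat 0% passed on early glucose, where SFC1 was at -1.24 and ICL1 at -1.16 (both adjusted p = 0.4663), and 0% at steady state, where none of the 6 had an unadjusted p under 0.05. Unadjusted, 469 genes on early glucose and 767 at steady state were under 0.05 in that chemostat. In no3AT2, 0.523% passed on early glucose and 1.38% at steady state, with none of the 6 among them. PCK1 was at -1.25 there on early glucose (adjusted p = 0.1426) and at -1.58 after neighbour correction (adjusted p = 0.0367). SFC1 was at -1.54 at steady state (adjusted p = 0.2228).

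Between the 3AT40mM and no3AT chemostats, galactose levels of ICL1, PCK1 and MLS1 stood apart in value but not by the test. In 3AT40mM minus no3AT, ICL1 was at -2.40 (SE 0.47, limma adjusted p = 0.1315), PCK1 at -1.38 (SE 0.40, adjusted p = 0.5860) and MLS1 at -1.08 (SE 0.35, adjusted p = 0.7939), and 0% of genes passed (202 had an unadjusted p under 0.05). For each of the 3, both 3AT40mM galactose arrays lay below both no3AT galactose arrays. These 3 had the largest differences among the tested genes of the set. How many of all genes show such a split was not counted, so it is a description only. With quantile normalization PCK1, at -1.89, and ICL1, at -2.47, passed. The no3AT2 galactose array, also without inhibitor, was not compared here. It carries polyA RNA and the others total RNA, so RNA type and culture cannot be told apart in its levels. On that array ICL1 was at 0.35 and MLS1 at -0.07, near 3AT40mM (0.31 and -0.48, and -0.02 and -0.32). PCK1 was at 0.24 on it, nearer to no3AT (0.74 and 0.48) than to 3AT40mM (-0.86 and -0.68).

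The changes themselves were compared between chemostats by interaction contrasts, which share the galactose arrays with the comparison just given. The early change of PCK1 was higher in 3AT40mM than in no3AT by 1.76 (SE 0.56, limma adjusted p = 0.9988), and that of MLS1 by 1.75 (SE 0.50, adjusted p = 0.9988), with 0% of genes passing (139 unadjusted). The steady-state change of ICL1 was higher by 2.07 (SE 0.75, adjusted p = 0.9999), again with 0% passing (83 unadjusted). Between the chemostats without inhibitor, 0.105% of genes passed for the early change and 0% (134 unadjusted) for the steady-state change. Those chemostats also differ in RNA type, polyA in no3AT2 and total in no3AT. JEN1's early change was lower in no3AT2 than in no3AT by a difference of -1.79 (SE 0.66, adjusted p = 0.2780). No difference between chemostats passed for any of the 6 genes.

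Over the labelled hours, the set stood lowest on an early glucose array of each chemostat. The median difference from the chemostat's own galactose mean was -1.61 over 9 genes at 353 hours in no3AT, where 7 of 9 were more than 2-fold down beside 11.8% of all genes. It was -1.05 over 8 genes at 315 hours and -1.07 over 6 genes at 328 hours in no3AT2, where all were below galactose and 5 and 4 were more than 2-fold down, beside 24.1% and 13% of all genes. In 3AT40mM the lowest median was -0.65 over 8 genes at 574 hours, with 4 more than 2-fold down beside 21.2% of all genes. With neighbour-corrected values the 574-hour median was -0.28, little below those at 592 hours (-0.24) and 850 hours (-0.21). At 552 hours, the first glucose array of that chemostat, none of the set was 2-fold down, and only 0.0334% of all genes were.

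The later arrays lay closer to galactose in some cases only. In no3AT the median was -0.02 at 385 hours but -0.85 at 478 hours and -0.68 and -0.38 at steady state. With neighbour-corrected values the medians at 385, 478 and 526 hours were -0.55, -0.68 and -0.81. In 3AT40mM the median of centred values was between -0.12 and -0.10 from 592 to 878 hours and -0.35 at 937 hours. At 937 hours 2 of 9 genes, FBP1 (1.21) and CAT8 (1.62), were more than 2-fold up, beside 16.2% of all genes. After neighbour correction FBP1 and CAT8 were at 0.37 and 1.31. In no3AT2 the 3 steady-state arrays had medians of -0.52, -0.58 and -0.66. The median change of all genes lay between -0.04 and 0.10 on every array.

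**Figure D3:**
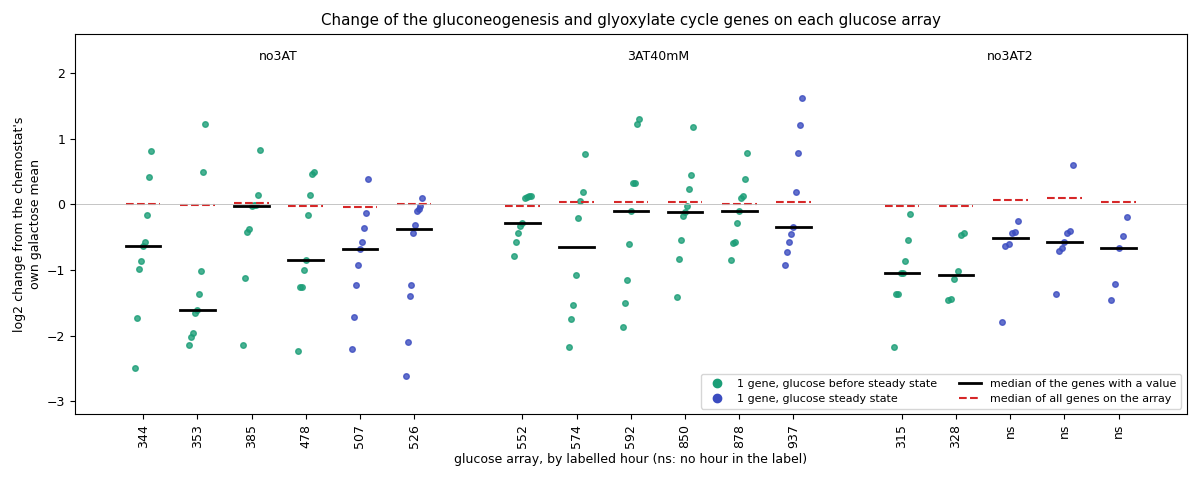
Log2 change of each of the 10 genes with a value from the chemostat's own galactose mean (y axis) on each of the 17 glucose arrays (x axis, by labelled hour). Points are genes, black bars their median and red dashed bars the median of all genes on the array. The median of the set was lowest at 353 hours (-1.61) and near 0 at 385 hours (-0.02, or -0.55 with neighbour-corrected values), while that of all genes stayed between -0.04 and 0.10.

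Across arrays the genes did not move as one block. For the 33 of 45 pairs with values on at least 15 common arrays, Pearson's r of the centred values ranged from -0.44 to 0.67, with a median of 0.12. These r are descriptions, since the arrays share 3 cultures, the reference pool and the row-order pattern. The closest pair was FBP1 and SFC1 (r = 0.67 over 17 arrays), followed by ICL1 and JEN1 (0.57 over 22 arrays), and the least alike were JEN1 and CAT8 (-0.44). Against the mean of the others, among the 9 genes with at least 15 arrays, FBP1 had the highest r at 0.79, then SFC1 at 0.57 and ICL1 at 0.52, while CAT8 was at -0.01 and CIT2 at -0.10.

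Removing the local row median drew some of these genes together. FBP1 and SFC1 then correlated at 0.88, FBP1 and ICL1 at 0.85 instead of 0.44, ICL1 and SFC1 at 0.70 instead of 0.37, and PCK1 and MLS1 at 0.69 instead of 0.47. Among 5201 genes ranked by r with ICL1, FBP1 stood at rank 185 before the correction and at rank 1 after it, and SFC1 at ranks 419 and 8. Among 5062 genes ranked by r with FBP1, SFC1 moved from rank 76 to 2 and ICL1 from 655 to 4. MLS1 moved from rank 465 to 3 for PCK1. These ranks were chosen after the values were seen. The median over the 33 pairs stayed at 0.12, and other pairs moved apart. CIT2 stood at -0.70 with SFC1 instead of -0.13, and at -0.55 with FBP1 instead of 0.14. ACS1 also stood off, at 0.02 with ICL1 and -0.02 with SFC1 after the correction, instead of 0.34 and 0.40.

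**Figure D4:**
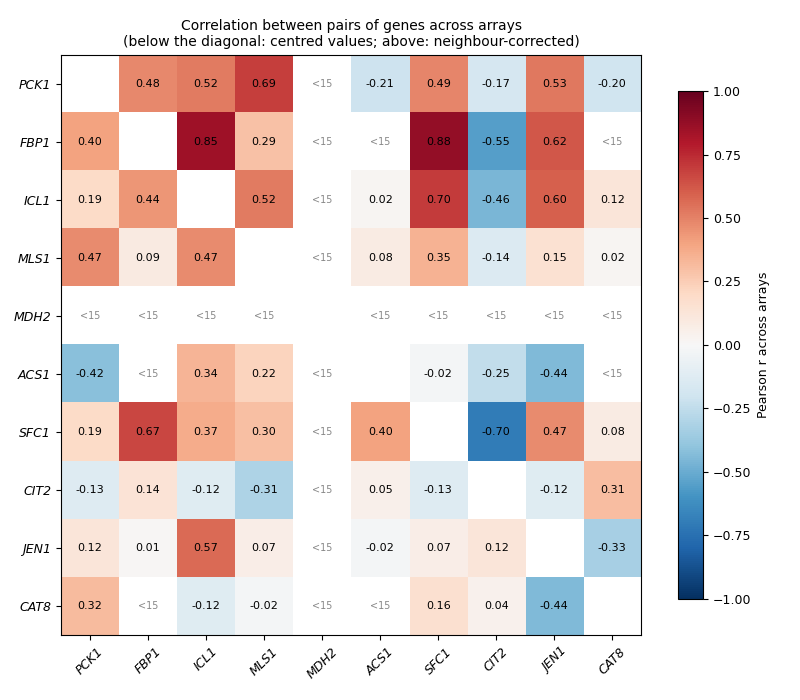
Pearson's r between pairs of the 10 genes across arrays, with centred values below the diagonal and neighbour-corrected values above it, and pairs with fewer than 15 common arrays left blank. FBP1, ICL1 and SFC1 stand at 0.44, 0.67 and 0.37 below the diagonal and at 0.85, 0.88 and 0.70 above it, and CIT2 is negative with each of the 3 above it.

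By correlation with the mean profile of the 10 genes, the most alike of 5193 other genes were YMR294W-A (r = 0.75 over 21 arrays), TMA10 (0.70 over 22), MRP20 (0.69 over 22), MRK1 (0.69 over 20) and REG1 (0.68 over 22). With neighbour-corrected values these stood at 0.65, 0.65, 0.59, 0.55 and 0.49. For single genes the most alike were TIP41 for PCK1 (0.83), AYT1 for FBP1 (0.83), YOR050C for ICL1 (0.88), SKI8 for MLS1 (0.77), REV7 for ACS1 (0.89), YJL175W for SFC1 (0.90), ADH6 for CIT2 (0.67), DLD1 for JEN1 (0.84) and PRT1 for CAT8 (0.86). After the correction they ranged from 0.28 for ADH6 to 0.71 for YOR050C. LRG1, the most alike to MDH2, rests on 5 arrays.

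Other genes of the pathway were counted in lists by role, in the limma fit over chemostats. Each count below stands beside 6.86% of all tested genes that fell on early glucose and 13% at steady state. Of 16 glucose repression regulators 14 were tested, none rose and 2 fell on early glucose and again at steady state. These were SIP4, an activator that binds the same promoter element as Cat8 (-1.39, adjusted p = 0.0108, and -1.33, adjusted p = 0.0065), and REG1, a regulatory subunit of the Glc7 phosphatase that opposes Snf1 (-1.22, adjusted p = 0.0253, and -0.97, adjusted p = 0.0391). After neighbour correction SIP4 was at -0.37 and -0.39 and REG1 at -0.62 and -0.49, none passing. HXK2, the hexokinase that takes part in repression, was at -0.79 and -0.63, MIG1 at 0.44 on early glucose and ADR1, an activator of ethanol and fatty acid genes, at -0.61 at steady state, none passing. The list's medians were -0.08 and -0.31.

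Of 15 genes of C2 and acetyl unit and glycerol use, 12 were tested, none passed on early glucose and 3 fell at steady state. GUT1, glycerol kinase, fell by 1.46 (SE 0.31, adjusted p = 0.0068) and stood at -1.56 after neighbour correction (adjusted p = 0.0627). GUT2, mitochondrial glycerol-3-phosphate dehydrogenase, fell by 1.17 (adjusted p = 0.0239) and YAT1, a carnitine acetyltransferase, fell by 0.94 (adjusted p = 0.0486), but after the correction these stood at -0.41 and 0.01. On early glucose GUT2 was at -0.97, ATO2 at 0.82, ATO3 at -0.55 and GUT1 at -0.53. ALD6, an aldehyde dehydrogenase, was at -0.66 at steady state. The list's medians were -0.16 and -0.23.

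Of 7 paralogues of the set 4 were tested, those of MDH2, MLS1 and ACS1, and none passed in either comparison. ICL2, the paralogue of ICL1, had values only in the no3AT chemostat and was not tested. DAL7, a second malate synthase, was at -0.67 and -0.74 (adjusted p = 0.1321 and 0.0611), and at 0.06 and 0.11 after neighbour correction. MDH1 and MDH3, the mitochondrial and peroxisomal malate dehydrogenases, were at -0.32 and 0.32 on early glucose and -0.14 and 0.20 at steady state. ACS2, the other acetyl-CoA synthetase, was at 0.23 and 0.04.

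Among 9 genes of the opposing glycolytic and anaplerotic steps, all tested, 1 fell in each comparison. FBP26, fructose-2,6-bisphosphatase, fell by 1.35 on early glucose (adjusted p = 0.0146) and fell by 1.32 at steady state (adjusted p = 0.0082), and stood at -0.30 and -0.17 after neighbour correction. CDC19, pyruvate kinase, was at 0.82 on early glucose (adjusted p = 0.2643) and 1.22 at steady state (adjusted p = 0.0621), and with neighbour-corrected values at 2.17 at steady state (adjusted p = 0.0486), the only gene of these lists that passed in that fit. PFK1, a phosphofructokinase subunit, was at 1.06 and 0.95 (adjusted p = 0.0905 and 0.0765). PFK26 and PFK27, which make fructose-2,6-bisphosphate, were at -0.84 and 0.59 on early glucose and at -0.79 and 0.97 at steady state.

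Of 8 genes of the Gid complex and its partners, which degrade Fbp1 and Pck1 protein after glucose is added, all were tested. FYV10 fell by 1.86 on early glucose (adjusted p = 0.0093) and fell by 1.74 at steady state (adjusted p = 0.0034), and VID28 fell by 1.06 at steady state (adjusted p = 0.0167). After neighbour correction FYV10 was at -1.15 and -0.97 and VID28 at -0.41 at steady state, none passing. On early glucose VID28 was at -0.79, GID8 at 0.57 and VID24 at 0.55, and at steady state GID8 was at 0.58 and RMD5 at -0.45. Between early glucose and glucose steady state no gene of any of these lists passed.

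The calls in these lists rest on single arrays to different degrees. On early glucose those of SIP4, REG1, FBP26 and FYV10, and of GAL1 and GAL7, were each lost without the 574-hour array and without the no3AT2 galactose array, and that of REG1 also without the 316-hour array. Where the gene could still be tested with an array left out, FYV10 passed each time at steady state. GUT1 lost its call only without the 937-hour array, SIP4 only without the 507-hour array, and FBP26 without the 937-hour or the no3AT2 galactose array. VID28 lost its call without the 507-, 552- or 937-hour array or the no3AT2 galactose array. GUT2 lost it without the 316-, 344-, 507- or 552-hour array, the no3AT2 galactose array or the no3AT2 328-hour array. REG1 lost it without any of the same 6 or the 574- or 937-hour array, and YAT1 without any of these 8, the 526- or 477-hour array or no3AT2 steady-state array 1.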

How the data were processed

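The deposited table gives, for 22 arrays and 6281 rows, signed ratios that lie around 0. They were taken as log2 ratios of Cy5 sample over Cy3 pool, with dyes per the labels. If the log base is another, the values scale with it. How the arrays were scanned, corrected, normalized and filtered, the log base and the array build stay unstated: not given in the sources used here. No intensities were used, so depth is unknown and the number of arrays limits the precision.

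Rows were matched to a table of the R64 assembly (5763 matched, 518 not), 76 rows sharing a gene were averaged, and each array was centred on its median (-0.15 to 0.07 as deposited). The tests took genes measured on at least 80% of arrays and in all 9 pairings of chemostat with phase, using limma 3.58.1 (R 4.3.3). The fit over chemostats used 9 means with chemostat as a block, and the fit of 17 arrays used 1 mean per pairing, with a lone array taken to be as variable as the rest. Two-sided p-values were adjusted by Benjamini-Hochberg over 4783 genes, with a threshold of 0.05. The fits were tested on simulated data.

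The genes and lists were chosen with earlier results of these data known. Named are the 10 genes, the genes of each list past the threshold, up to 4 with its largest changes, the genes most alike by correlation, and GAL1 and GAL7. Alternatives were other scalings, filters, row choices, moderation, units, block and phase definitions, neighbour correction, and leaving out each array or chemostat.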

Additional observations from a re-analysis of the deposited data

Results flagged for a closer look

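Among 17 groups of arrays tested for a value far from the rest, none stood out. Of 48 pairs of chemostats compared gene by gene, 8 showed every array of one moving from galactose opposite to every array of the other. The same count was not made over all genes, so the 8 pairs are descriptions. PCK1 accounts for 3 of them. On early glucose its 2 no3AT arrays were at -0.98 and -1.65 from galactose and its 3AT40mM arrays at 0.12 and 0.77, a difference of means of -1.76 (limma interaction contrast, adjusted p = 0.9988). Against the no3AT2 arrays, at -1.36 and -1.14, the 3AT40mM mean was higher by 1.69, which was not tested. At steady state the 3AT40mM array was at 0.78 and the no3AT2 arrays at -0.64, -0.58 and -0.20, a difference of 1.25 that was not tested. With neighbour-corrected values none of the 3 remained opposite: the 3AT40mM change was 0.02 on early glucose, its arrays on both sides of 0, and -0.46 at steady state, where no3AT2 was at -1.02.

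FBP1 at steady state was at -0.92 and -1.39 in no3AT and at 1.21 on the 3AT40mM array, a difference of -2.37 that was not tested. After neighbour correction the means were -1.51 and 0.37, still opposite. MLS1 on early glucose was at -1.73 and -1.61 in no3AT and at 0.11 and 0.05 in 3AT40mM, a difference of -1.75 (limma interaction, adjusted p = 0.9988). MLS1 in no3AT2 was at -0.14 and -0.47, so that 3AT40mM was higher by 0.38, not tested. CIT2 at steady state was at -0.36 and -0.10 in no3AT and at 0.19 in 3AT40mM, a difference of -0.42 (limma interaction, adjusted p = 0.9999). CIT2 on early glucose was at 0.41 and 0.50 in no3AT and at -1.05 and -0.44 in no3AT2, a difference of 1.20 (limma interaction, adjusted p = 0.4761). After neighbour correction both MLS1 pairs stayed opposite and neither CIT2 pair did, so that 3 of the 8 remained. The changes of one chemostat share its galactose arrays, and inhibitor and culture cannot be told apart. For no3AT2, RNA type and culture cannot be told apart either.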

How the results depend on the processing

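Of 2220 recomputed values under 32 alternatives, 1864 kept their direction and their side of the threshold and 43 turned sign. Over chemostats on early glucose, where 2 genes of the set passed, 0 passed with neighbour-corrected values (also with a value in each combination only, an alternative chosen after seeing the data), with no replicate block, with early glucose as the lowest labelled hour and without the no3AT or the 3AT40mM chemostat, and 1 passed without no3AT2. At steady state, where 1 passed, 0 passed under those same 6 settings. There 2 passed with quantile normalization, a value in each combination only, robust and trended moderation, early glucose as all arrays before steady state, or without no3AT2. Leaving out single arrays gave 0 to 2 in both. Over all genes the count of calls ranged from 0 to 617 (340 as reported) on early glucose and from 20 to 1222 (840) at steady state, and from 0 to 146 (0) between early and steady-state glucose. No replicate block left 0 genes on early glucose and 432 at steady state. The main fit pairs phases by culture, with the chemostat as a block. By replicate number, no paired analysis was possible because the labels number only the steady-state arrays of no3AT2, so the groups compared share fewer than 2 numbers.

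Within no3AT, where 0 passed on early glucose, 2 passed with quantile normalization and 1 with the lowest labelled hour (0 to 1 with single arrays left out). At its steady state, where 0 passed, 1 passed with quantile normalization, neighbour-corrected values (with either filter), a value on all 17 arrays, robust and trended moderation or early glucose as all arrays before steady state, and 2 with the lowest labelled hour (0 to 2 with single arrays left out). In 3AT40mM early glucose single arrays left out gave 0 to 2. In no3AT2, 1 passed on early glucose with neighbour-corrected values (either filter) and 2 with the lowest labelled hour, which gave 1 at steady state. For the galactose difference, quantile normalization gave 2 and the lowest labelled hour 1 (0 to 1 with single arrays left out). The early difference between no3AT2 and no3AT gave 0 to 1 with single arrays left out. The cause was not tested for any of these.

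Of the values that turned sign, YAT1 at steady state (-0.94 as reported) had passed the test and the rest had not. With neighbour-corrected values (either filter) CIT2 stood at 0.84 and 1.07 and YAT1 at 0.46 and 0.01 on early and steady-state glucose, and from early to steady-state glucose MLS1 at 0.07 and JEN1 at 0.13. On early glucose without no3AT2, CIT2 was at 0.17 and JEN1 at 0.13, and YAT1 was at 0.02 without 3AT40mM. CIT2 at steady state was at 0.08 with quantile normalization. From early to steady-state glucose without 3AT40mM, ICL1 was at -0.12, MLS1 at 0.20, CIT2 at -0.15 and JEN1 at 0.03. In that comparison CIT2 was also at -0.01 as deposited and with all arrays before steady state, -0.02 with arrays as units and -0.19 without no3AT2. JEN1 was at 0.02 with arrays as units, 0.14 with the lowest labelled hour and 0.26 without no3AT, and SFC1 at -0.11 with the lowest labelled hour. With single arrays left out, CIT2 ranged from -0.24 to 0.07, from -0.29 to 0.08 and from -0.15 to 0.15 in the 3 comparisons, and from early to steady-state glucose ICL1 ranged from -0.15 to 0.44, MLS1 from -0.15 to 0.02 and JEN1 from -0.27 to 0.19. The cause was not tested.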
